A study of Mus musculus with 6 samples.

Results

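Genes of the antioxidant response were examined by single-cell RNA sequencing of mouse spinal cord in a study of mitochondrial complex I and neuroinflammation. The 10 genes described here were listed by name and not by a threshold on their values, and all 10 were among the 18792 genes of the deposited table. They are Hmox1, Nqo1, Gclc, Gclm, Slc7a11, Prdx1, Txn1, Txnrd1, Sod1 and Sod2. The 6 libraries came from Nd6 mice with experimental autoimmune encephalomyelitis (EAE; 2 libraries), WT mice with EAE (2 libraries), Nd6 healthy controls (1 library) and WT healthy controls (1 library). Nd6 mice carry the P25L change in a complex I subunit that mitochondrial DNA encodes, so the change is not limited to microglia. EAE was induced by immunization with a peptide of myelin oligodendrocyte glycoprotein (MOG residues 35 to 55) in female mice aged 8 to 20 weeks, and tissue was taken 30 days later, while healthy controls were of both sexes. How many mice each library holds was not stated in the sources used here. All mice were perfused with the transcription inhibitors actinomycin D and triptolide before dissociation, and myelin was removed, so the cells recovered need not stand in the proportions of the tissue.

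Cells meet reactive oxygen species with a small set of enzymes, many of them under the transcription factor NRF2 (gene Nfe2l2). NRF2 is degraded through its partner KEAP1 in resting cells. When KEAP1 is oxidized, NRF2 accumulates, pairs with a small MAF protein and binds a short DNA motif, the antioxidant response element. Its targets make glutathione (Gclc, Gclm, Slc7a11), run the thioredoxin cycle (Txn1, Txnrd1, Prdx1), break down heme (Hmox1) and reduce quinones (Nqo1). The superoxide dismutases Sod1 and Sod2 turn superoxide into hydrogen peroxide, and Sod2 is also a known target of inflammatory signalling through NF-kB. In the spinal cord these genes are of interest in microglia and infiltrating monocytes, which produce oxidants, and in glia and ependymal cells, which are exposed to them.

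The table held 13614 cells, and its values were whole numbers that could not be taken as UMI counts. Totals per cell ran only from 687 to 1578 (median 962), over 138 to 1287 genes per cell. The values are called deposited values below, and a level is their mean over the cells of a class. The names of the cells end in 1 of 6 numbers, which split them into sets of 809 to 4633 cells, lettered A to F from the largest to the smallest. No source used here links a set to a library. The whole table therefore counts as 1 sample, and neither genotypes nor control and EAE mice were compared. No p-value was computed. Intervals on shares of cells are exact Clopper-Pearson 95% intervals and cover counting error only. For a share of 0, the limit given in place of an interval is 3 cells of the number of cells in the class. Levels of different genes were not compared, since the values carry no correction for the way each gene was captured.

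Cells were sorted into classes by their marker genes, none of which is a member. The gates held 11047 cells, of which 9256 were myeloid, 714 oligodendrocyte-like, 568 endothelial cell-like, 128 T or NK cell-like, 126 ependymal cell-like and 102 astrocyte-like, while 77 resembled pericytes or smooth muscle cells (pericyte or smooth muscle cell-like). Classes under 50 cells, such as oligodendrocyte precursors (5 cells) and border macrophages (13 cells), were not described. Cells with markers of a lineage and of myeloid cells together (672) were left out. The 6 cell types and 5 states of myeloid cells, described further on, make up 11 classes that share no cells. Interferon-responsive and proliferating myeloid cells were marked across those states and are counted apart from the 11 classes. Leading genes of a class were those with the highest fold over all other gated cells, among genes above 0 in at least 10% of its cells. Those of the oligodendrocyte-like, astrocyte-like, endothelial cell-like and pericyte-like classes included their own markers (Ugt8a, Aqp4, Flt1 and Ndufa4l2, for example). None of the 10 leading genes of the ependymal cell-like class was a marker used by its gate. They included Dnali1, an axonemal dynein light chain of cilia, and Capsl.

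Myeloid transcripts were found in cells of every gate, as free RNA in droplets gives. Apoe, which encodes the lipid carrier apolipoprotein E, was above 0 in 99.2% of T or NK cell-like cells and in 89.4% of oligodendrocyte-like cells, against 87.9% of myeloid cells. The myeloid genes Tyrobp, Fcer1g, Trem2, Cd68 and Lyz2, which no gate used, served as the measure of it. Their levels stood at 0.590 to 0.887 times the myeloid level in oligodendrocyte-like cells, at 0.526 to 0.787 times in endothelial cell-like cells, at 0.364 to 0.565 times in T or NK cell-like cells, at 0.283 to 0.572 times in astrocyte-like cells, at 0.253 to 0.479 times in pericyte or smooth muscle cell-like cells and at 0.0753 to 0.153 times in ependymal cell-like cells. A member whose fold falls inside that range is at the level that free myeloid RNA would give. The ependymal cell-like class was the one that held the least of these myeloid genes. The part of free RNA in each result was not tested, and these genes do not separate it from other myeloid RNA in the cells.

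The antioxidant response element was looked for as TGACNNNGC on either strand, from 250 bases before to 50 bases after each start site in RefSeq (GRCm38.p6). Of the 8 members with a promoter in the table used, 4 held the motif, which was present in 14% of all genes with a promoter and in 12.4% of all promoters. The 4 stretches are shown because they are the letters that NRF2 and its MAF partner are known to read. Capitals mark the motif, which in each case lies on the strand opposite to the gene, so that the printed capitals are its reverse complement GCNNNGTCA. The Gclm stretch is chr3:122245378-122245476, the Prdx1 stretch chr4:116685421-116685519, the Txnrd1 stretch chr10:82859069-82859167 and the Sod1 stretch chr16:90220661-90220759, all on the plus strand, which is also the strand of the genes.
Gclm: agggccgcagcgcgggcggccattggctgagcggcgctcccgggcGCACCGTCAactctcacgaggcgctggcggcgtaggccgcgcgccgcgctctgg
Prdx1: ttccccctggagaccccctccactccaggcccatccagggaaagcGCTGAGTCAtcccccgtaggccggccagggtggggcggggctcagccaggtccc
Txnrd1: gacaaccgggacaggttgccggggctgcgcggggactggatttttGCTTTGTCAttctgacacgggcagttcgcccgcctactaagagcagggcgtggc
Sod1: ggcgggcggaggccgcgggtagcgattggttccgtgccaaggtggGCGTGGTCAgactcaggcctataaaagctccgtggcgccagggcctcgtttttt

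Read on the strand opposite to the gene, the motif was TGACGGTGC for Gclm, TGACTCAGC for Prdx1, TGACAAAGC for Txnrd1 and TGACCACGC for Sod1. The Prdx1 form also contains TGACTCA, the letters that AP-1 factors are known to bind. The motif of Prdx1 ended 125 bases before the start site, that of Gclm 126 bases, that of Txnrd1 84 bases and that of Sod1 48 bases. Txnrd1 has 3 start sites in the table, of which 1 held the motif. The promoters of Nqo1, Slc7a11, Txn1 and Sod2 did not hold these letters in this window. Hmox1 and Gclc had no promoter in the table used. A match is a description of letters and was not tested as a binding site.

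Over all cells the members differed in how often they were seen. Prdx1 was above 0 in 44.9% of the 13614 cells and Txn1 in 26.2%. Sod2 was above 0 in 8.91%, Hmox1 in 7.46%, Sod1 in 5.8%, Txnrd1 in 3.99%, Gclm in 3.67%, Gclc in 2.40%, Slc7a11 in 1.36% and Nqo1 in 0.323% (44 cells). Most positive cells held a value of 1, as did 933 of the 1015 cells positive for Hmox1. Prdx1 and Txn1 were the members with the most cells at 2 or more (2273 and 845 cells).

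**Figure D1:**
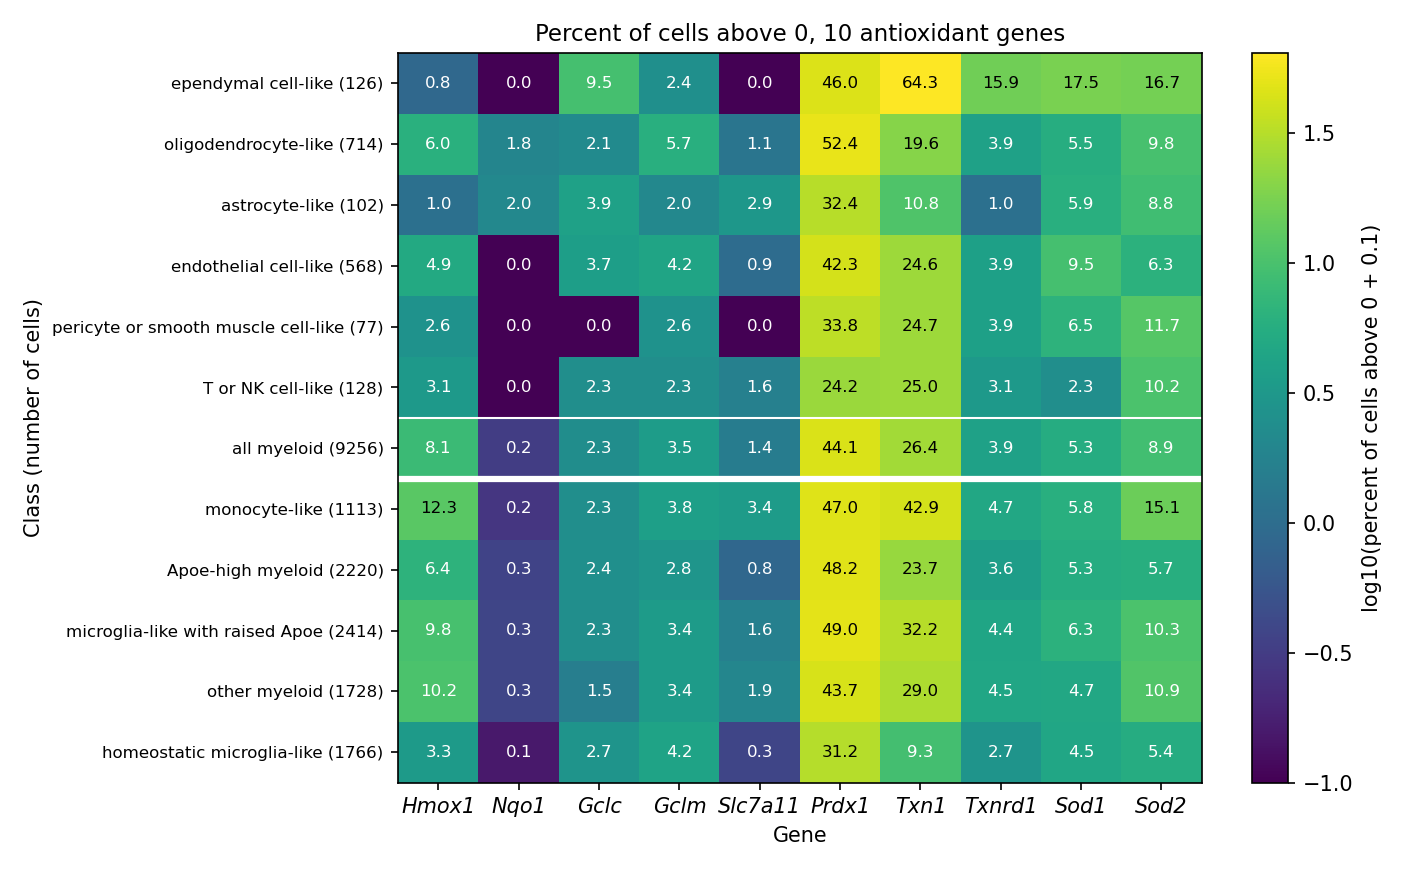
Percent of cells above 0 for the 10 members (columns) in each class of cells (rows, with the number of cells), printed in each tile and coloured on a log10 scale after adding 0.1. Ependymal cell-like cells had the highest shares of Txn1 (64.3%), Txnrd1 (15.9%), Sod1 (17.5%), Sod2 (16.7%) and Gclc (9.5%), and monocyte-like cells had the highest share of Hmox1 (12.3%) among the classes drawn, which leave out interferon-responsive and proliferating myeloid cells. For Sod2, monocyte-like cells were close, at 15.1%.

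Ependymal cells are the ciliated cells that line the central canal. Of the 10 members, 6 passed the limit on low values (an average of the 2 class means of at least 0.05) against myeloid cells, and 5 of these were at least 1.5-fold higher in ependymal cell-like cells. These were Txn1, Txnrd1, Gclc, Sod1 and Sod2, and none was at least 1.5-fold lower. Of all 3642 genes compared in the same way, 56.9% were at least 1.5-fold higher and 20.6% at least 1.5-fold lower, and the median fold of all of them was 1.78. The count of members is therefore read against a class in which most genes were higher. Ependymal cell-like cells also held more genes per cell (median 760.5) than myeloid cells (median 537).

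**Figure D2:**
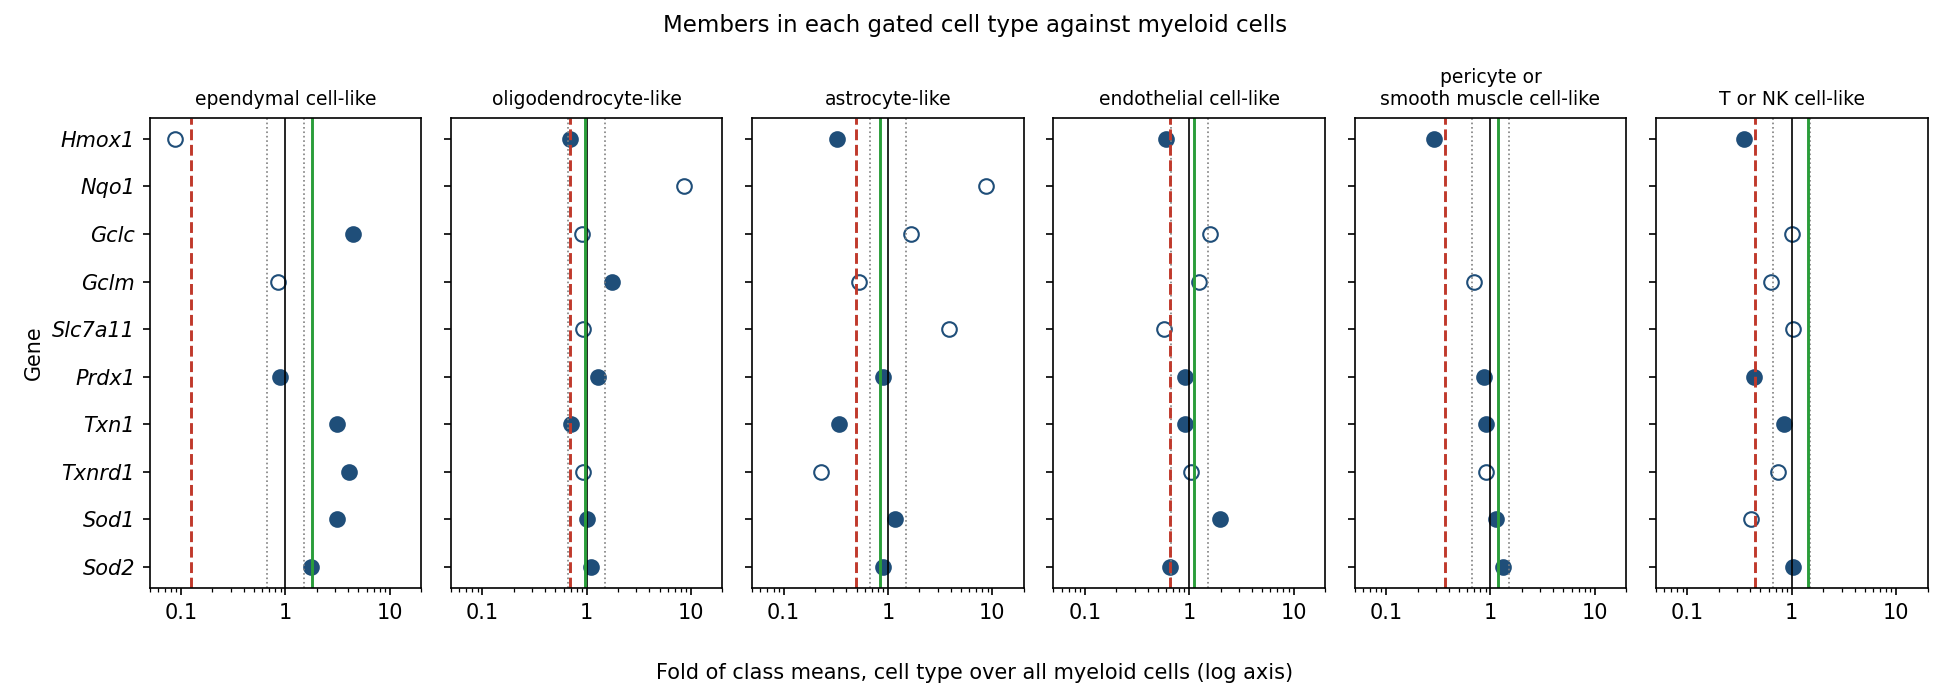
Fold of class means of each member in 6 gated cell types over all myeloid cells, on a log axis, with filled points for members past the limit on low values and open points for the others. Members listed at 0 in the cell type are not drawn. The green line is the median fold of all genes compared, the dashed red line the median fold of the 5 myeloid genes that measure free RNA, and the dotted lines stand at 1.5-fold in either direction. In ependymal cell-like cells Txn1, Txnrd1, Gclc and Sod1 lie right of the green line, which stands at 1.78.

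Txn1 encodes cytosolic thioredoxin, which reduces disulfides in other proteins and hands electrons to peroxiredoxins. Its level was 1.07 in ependymal cell-like cells, against 0.345 in myeloid cells, a fold of 3.11. It was above 0 in 64.3% of ependymal cell-like cells (55.3 to 72.6%), against 26.4% of myeloid cells, and the highest share in the other 10 classes was 42.9%. Proliferating myeloid cells, counted apart, had a share of 48.97% (40.6 to 57.4%). Sets D and E were the only sets with at least 20 ependymal cell-like cells. In set D the level was 1.16 in 31 ependymal cell-like cells, against 0.0923 in myeloid cells, and in set E it was 0.900 in 50 ependymal cell-like cells, against 0.0817 in myeloid cells. The folds within these sets, 12.6 and 11, were larger than the pooled fold.

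Txnrd1 encodes thioredoxin reductase, the selenoenzyme that recharges thioredoxin with electrons from NADPH. Its level was 0.175 in ependymal cell-like cells, against 0.0426 in myeloid cells (4.10-fold), and 15.9% of ependymal cell-like cells were positive (9.97 to 23.4%). The next of the 11 classes in order of level, other myeloid cells, had a level of 0.0503 and 4.46% positive cells (3.53 to 5.54%), an interval apart from the ependymal one. Interferon-responsive myeloid cells, counted apart, had a level of 0.111 and 11.1% positive cells (5.21 to 20%), and proliferating myeloid cells a level of 0.0966 and 7.59% (3.85 to 13.2%). Both of these intervals overlapped that of ependymal cell-like cells. Within sets the fold was 2.92 in set D and 9.98 in set E. Prdx1, which encodes the peroxiredoxin that thioredoxin keeps active, did not share this pattern. Its level was 0.611 in ependymal cell-like cells, against 0.694 in myeloid cells, a pooled fold of 0.880. Within sets the direction was the opposite, with a fold of 1.42 in set D and 1.17 in set E.

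Gclc encodes the catalytic subunit of glutamate-cysteine ligase, which makes the first bond of glutathione, and Gclm encodes its modifier subunit. Gclc had a level of 0.103 in ependymal cell-like cells, against 0.0233 in myeloid cells (4.42-fold), with 9.52% positive cells (5.02 to 16.0%), against 2.28%. It was higher in ependymal cell-like cells in both sets, by 2.84-fold in set D and 6.66-fold in set E. In order of level the next of the 11 classes was astrocyte-like cells at 0.0392, whose share of 3.92% (1.08 to 9.74%) overlapped the ependymal interval. Interferon-responsive myeloid cells had a level of 0.0494 and a share of 4.94% (1.36 to 12.2%), which also overlapped it. So did the shares of endothelial cell-like cells, 3.70% (2.30 to 5.60%), T or NK cell-like cells, 2.34% (0.486 to 6.70%), and proliferating myeloid cells, 2.07% (0.429 to 5.93%). Gclm had a level of 0.0317 in ependymal cell-like cells, against 0.0373 in myeloid cells, and did not pass the limit on low values. Slc7a11, the cystine transporter that brings in the cysteine for glutathione, was listed at 0 in all 126 ependymal cell-like cells, which allows a share of up to 2.38%, against 1.4% in myeloid cells. The difference for Slc7a11 was therefore not detectable with this number of cells.

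Sod1 encodes the copper and zinc superoxide dismutase of the cytosol and Sod2 the manganese enzyme of mitochondria. Sod1 had a level of 0.183 in ependymal cell-like cells, against 0.0581 in myeloid cells (3.14-fold), and the fold was 6.13 in set D and 3.41 in set E. It was above 0 in 17.5% of ependymal cell-like cells (11.3 to 25.2%), against 5.35% of myeloid cells. The intervals of endothelial cell-like cells, 9.51% (7.22 to 12.2%), and of proliferating myeloid cells, 10.3% (5.91 to 16.5%), overlapped it. So did those of astrocyte-like cells, 5.88% (2.19 to 12.4%), and pericyte or smooth muscle cell-like cells, 6.49% (2.14 to 14.5%). Sod2 had a level of 0.175 in ependymal cell-like cells, against 0.0990 in myeloid cells (1.76-fold), which is about the median of all genes. Scaled to the total of each cell, the Sod2 fold was 1.45 and no longer past 1.5-fold, while the folds of Txn1, Txnrd1, Gclc and Sod1 were 2.70, 3.52, 3.90 and 2.80. Within sets Sod2 went in different directions, with a fold of 0.631 in set D and 3.94 in set E, and the pooled Sod2 fold was 1.49 without set F and 2.72 without set B.

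**Figure D3:**
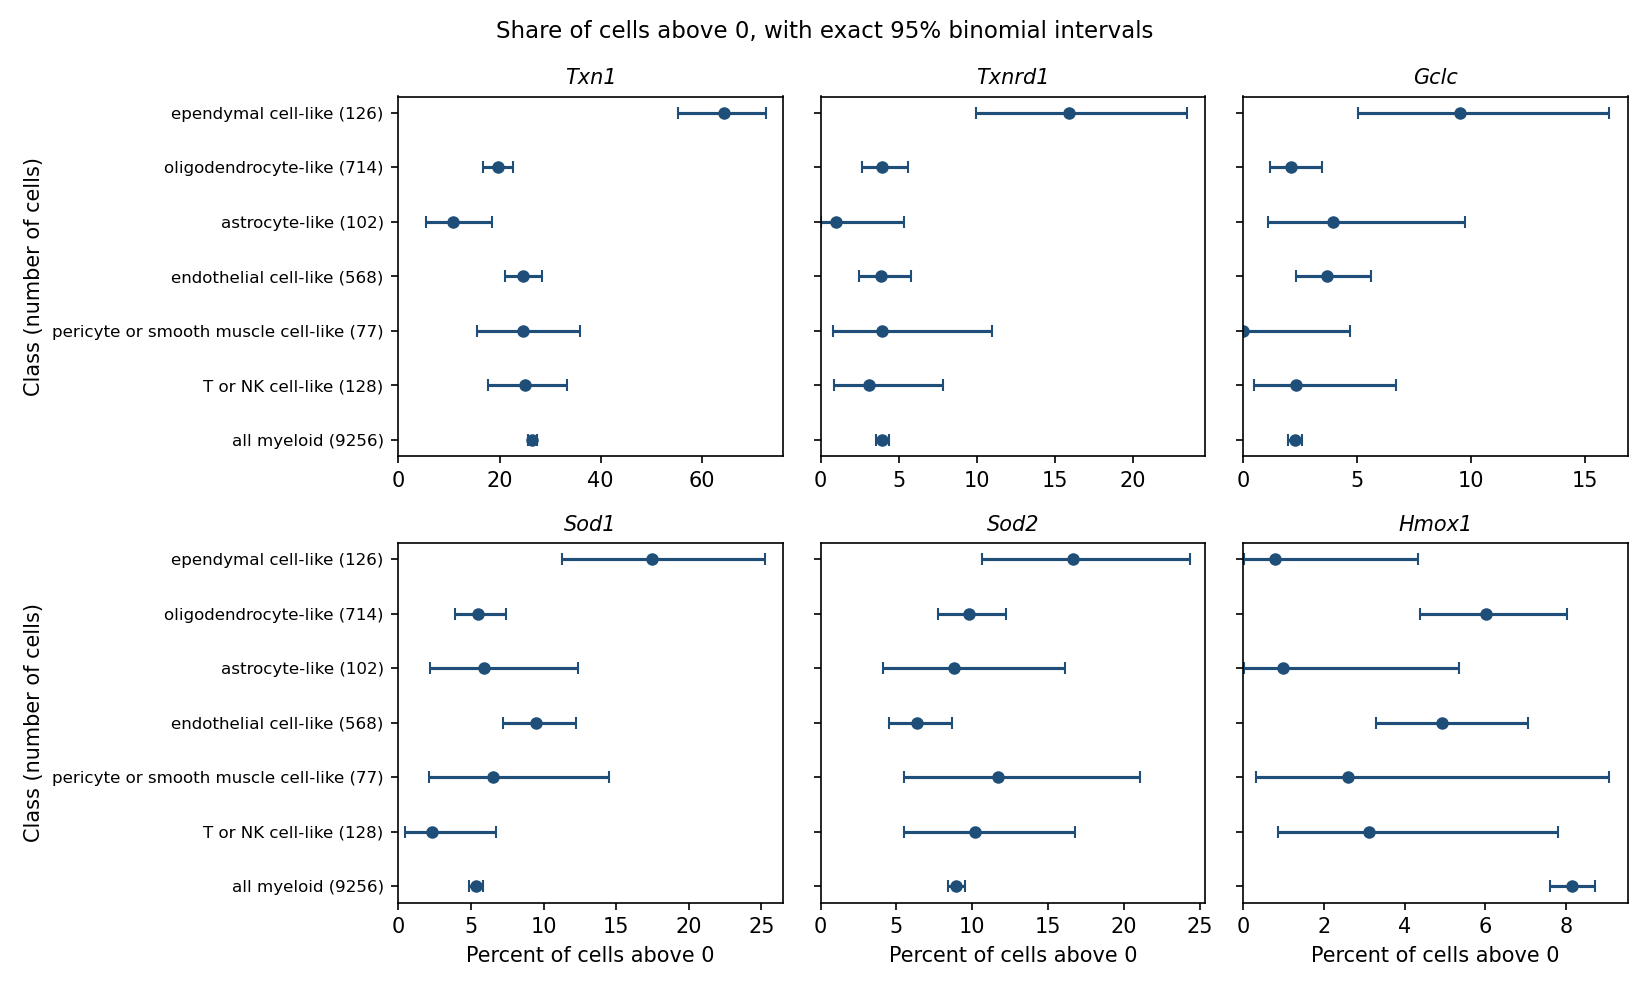
Percent of cells above 0 for 6 members in the 6 gated cell types and in all myeloid cells (number of cells in parentheses), with exact 95% binomial intervals. The ependymal cell-like interval for Txn1 (55.3 to 72.6%) lies above that of every other class drawn, whereas for Hmox1 the myeloid class has the highest share of those drawn (8.15%).

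Hmox1 encodes heme oxygenase, which opens heme into biliverdin, iron and carbon monoxide, and is known for its induction in macrophages that take up red cells or debris. It was above 0 in 1 of 126 ependymal cell-like cells (0.794%, 0.0201 to 4.34%) and in 8.15% of 9256 myeloid cells. In set D its level was 0 in 31 ependymal cell-like cells, against only 0.0291 in myeloid cells. In set E it was 0 in 50 ependymal cell-like cells, against 0.0192. The pooled difference is therefore also a difference between sets. The pooled Hmox1 fold against myeloid cells was 0.325 in astrocyte-like cells, 0.346 in T or NK cell-like cells, 0.287 in pericyte or smooth muscle cell-like cells, 0.604 in endothelial cell-like cells, 0.697 in oligodendrocyte-like cells and 0.0878 in ependymal cell-like cells. In 5 of the 6 cell types this fold lay inside the range of the 5 myeloid genes that measure free RNA, and in T or NK cell-like cells it lay below that range. Outside the myeloid class, the Hmox1 fold was thus within or below the range of these genes. The part of free RNA in it was not tested. In the astrocyte-like cells of sets A, B and E, the sets with at least 20 such cells, Hmox1 was listed at 0 in each. The astrocyte-like fold came from 1 positive cell of 102, with a value of 3. The pericyte or smooth muscle cell-like fold came from 2 positive cells of 77, so these folds rest on very few cells. Without set B the pooled Hmox1 fold was 0.658 in astrocyte-like cells and 0.648 in T or NK cell-like cells.

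Oligodendrocytes are the myelinating glia. Of 6 members past the limit on low values, 1 was at least 1.5-fold higher in oligodendrocyte-like cells than in myeloid cells and none was 1.5-fold lower, where 15.4% of all genes were higher and 12.6% lower by that limit. The gene was Gclm, with a level of 0.0658 in oligodendrocyte-like cells, against 0.0373 in myeloid cells (1.77-fold). It was higher in oligodendrocyte-like cells in each of the 6 sets, by 1.04-fold in set A, 1.73-fold in set B, 1.44-fold in set C, 2.86-fold in set D, 2.78-fold in set E and 2.95-fold in set F. Leaving out each set in turn gave a pooled Gclm fold of 1.60 to 2.40, but without any 1 of sets D, E and F its mean no longer passed the limit on low values. With 1 more marker required at each gate the fold was 2.86. Gclm was above 0 in 5.74% of oligodendrocyte-like cells (4.15 to 7.71%), the highest share of any class. Among the 11 classes the next were endothelial cell-like cells, 4.23% (2.73 to 6.22%), and homeostatic microglia-like cells, 4.19% (3.30 to 5.23%). Of the 11 classes only Apoe-high myeloid cells, 2.84% (2.19 to 3.62%), had an interval apart from that of oligodendrocyte-like cells. All myeloid cells together, 3.46% (3.09 to 3.85%), also lay apart. The Gclm locus overlaps Gm17494 on the other strand and the pseudogene Gm6061 on its own strand, so some of its reads may belong to Gm6061.

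Of the 11 classes, oligodendrocyte-like cells had the highest level of Prdx1, 0.899, against 0.694 in myeloid cells (1.29-fold). Among the myeloid cells counted apart it was higher still, at 1.19 in proliferating and 0.951 in interferon-responsive cells. It was above 0 in 52.4% of oligodendrocyte-like cells (48.6 to 56.1%), against 44.1% of myeloid cells. It was higher in oligodendrocyte-like cells in each of the 6 sets, by 2.41-fold in set D and 2.26-fold in set E and by 1.08 to 1.27-fold in the other 4. The levels within oligodendrocyte-like cells were 0.924, 0.80, 0.847, 1.04, 0.849 and 1.00 in sets A to F, while those within myeloid cells were 0.858, 0.711, 0.669, 0.431, 0.375 and 0.829. Oligodendrocyte-like cells thus held about the same level of Prdx1 in every set, and the myeloid level was low in sets D and E. Scaled to the total of each cell, Prdx1 was highest in proliferating myeloid cells (10.7), followed by other myeloid cells (9.85) and oligodendrocyte-like cells (9.22).

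Nqo1 encodes the quinone reductase that is a textbook target of NRF2, and it was nearly absent from the table. It was above 0 in 1.82% of oligodendrocyte-like cells (0.973 to 3.09%) and 1.96% of astrocyte-like cells (0.238 to 6.90%), against 0.227% of myeloid cells. Oligodendrocyte-like and astrocyte-like cells did not differ from each other beyond their intervals. The level in oligodendrocyte-like cells was 0.00906, 0.0370, 0.0278, 0.0192, 0.0411 and 0 in sets A to F and exceeded that in myeloid cells in 5 of 6 sets. Nqo1 was listed at 0 in 568 endothelial cell-like cells, which allows a share of up to 0.528%. Because both class means were low, Nqo1 did not pass the limit on low values in any comparison.

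Astrocyte-like cells (102) were low in 2 of 5 members past the limit on low values, and no member was higher, where 18.9% of all genes were at least 1.5-fold higher and 34.2% at least 1.5-fold lower than in myeloid cells. The 2 genes were Hmox1, given above, and Txn1, with a level of 0.118 in astrocyte-like cells, against 0.345 in myeloid cells (0.341-fold). Both folds lay inside the range of the genes that measure free RNA. Txn1 was lower in sets A and B (folds of 0.622 and 0.103) and higher in set E (1.75). Without set B the pooled Txn1 fold was 0.639. Txnrd1 was above 0 in 1 of 102 astrocyte-like cells (0.980%, 0.0248 to 5.34%). Slc7a11 had its highest level in astrocyte-like cells, 0.0588, against 0.0153 in myeloid cells, but from 2.94% of cells (0.611 to 8.36%), an interval that includes the myeloid share of 1.4%.

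In endothelial cell-like cells 1 of 5 members past the limit on low values was at least 1.5-fold higher than in myeloid cells and 2 were lower, where 28.4% of all genes were higher and 9.52% lower. Sod1 was the higher one, with a level of 0.114 in endothelial cell-like cells, against 0.0581 in myeloid cells (1.97-fold), and 9.51% positive cells (7.22 to 12.2%), against 5.35%. It was higher in 4 of 6 sets, with folds of 1.56, 0.828, 0.968, 1.22, 5.55 and 2.58 in sets A to F. The Sod1 locus overlaps Scaf4 on the other strand. Hmox1 (0.604-fold) was lower in 6 of 6 sets, being listed at 0 in set E, and Sod2 (0.658-fold) was lower in 3 of 6 sets. Both of these folds lay inside the range of the genes that measure free RNA, and neither was past 1.5-fold without set B (0.832 for Hmox1 and 0.969 for Sod2). Gclc, which did not pass the limit on low values, was higher in endothelial cell-like cells in 6 of 6 sets, by 1.27 to 2.40-fold.

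In pericyte or smooth muscle cell-like cells 1 of 5 members past the limit was at least 1.5-fold lower than in myeloid cells and none was higher, where 38.2% of all genes were higher and 24.4% lower. This was Hmox1, with a level of 0.0260 in pericyte or smooth muscle cell-like cells, against 0.0904 in myeloid cells. Gclc, Nqo1 and Slc7a11 were listed at 0 in all 77 cells, which allows a share of up to 3.90%. In T or NK cell-like cells 2 of 4 members past the limit were lower and none was higher, where 48.7% of all genes were higher and 19.6% lower. Prdx1 had a level of 0.305 in T or NK cell-like cells, against 0.694 in myeloid cells (0.439-fold), and was lower in 3 of 3 sets with enough cells (0.239 to 0.453-fold). Its fold lay within the range of the free RNA genes. T or NK cell-like cells had the lowest Prdx1 level of all 11 classes, with 24.2% positive cells (17.1 to 32.6%). Homeostatic microglia-like cells, 31.2% (29.0 to 33.4%), and astrocyte-like cells, 32.4% (23.4 to 42.3%), had overlapping intervals. So did pericyte or smooth muscle cell-like cells, 33.8% (23.4 to 45.4%). Sets A, B and C gave 42, 59 and 25 of the 128 T or NK cell-like cells. Hmox1, at 0.0312 in T or NK cell-like cells, was also lower in 3 of 3 sets.

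Myeloid cells were divided into states. Monocyte-like cells (1113) were gated on monocyte genes such as Plac8, Ly6c2 and Arg1. Homeostatic microglia-like cells (1766) were gated on microglial genes such as P2ry12, Siglech and Slc2a5, with an Apoe value below 10. Among the leading genes outside these gates were Il1b and Tgfbi in monocyte-like cells and Hpgd and Abca9 in homeostatic microglia-like cells. Microglia-like cells with raised Apoe (2414) met the same microglial gate with an Apoe value of 10 or more. Apoe-high myeloid cells (2220) met neither gate and had an Apoe value of 60 or more, and 1728 other myeloid cells met none. Apoe differed between the sets, in myeloid cells and in other cells alike. Its level in myeloid cells was 97.3, 30.4, 88.4, 1.59, 1.20 and 44.1 in sets A to F, and in oligodendrocyte-like cells it was 88.3, 22.5, 54.3, 0.654, 0.781 and 36.7. The Apoe limits therefore followed the sets. Set D gave 878 and set E 734 of the 1766 homeostatic microglia-like cells, and set B gave 86.6% of the monocyte-like cells, so that a pooled fold between states is also a fold between sets.

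Against homeostatic microglia-like cells, 5 members passed the limit on low values in monocyte-like cells and 4 of these were at least 1.5-fold higher, namely Txn1, Hmox1, Sod2 and Prdx1. None was 1.5-fold lower. Of all 2812 genes compared, 17.3% were higher and 27.3% lower by that limit. Txn1 had a level of 0.605 in monocyte-like cells, against 0.102 in homeostatic microglia-like cells (5.90-fold), and 42.9% positive cells (39.9 to 45.8%), against 9.29% (7.97 to 10.7%). Hmox1 had a level of 0.136 in monocyte-like cells, against 0.0340 (3.99-fold), Sod2 0.172 against 0.0561 (3.06-fold) and Prdx1 0.704 against 0.418 (1.69-fold). Sod1, the fifth, had a fold of 1.24. Without set B, which held 964 of the 1113 monocyte-like cells, the Sod2 fold was 1.66 and that of Sod1 was 1.73.

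Set B was the one set with at least 20 cells of both states, and there the picture differed by gene. Txn1 was 0.633 in 964 monocyte-like cells, against 0.409 in 110 homeostatic microglia-like cells (1.55-fold), and Sod2 was 0.185, against 0.109 (1.69-fold). Both were higher within the set, by less than the pooled folds. Hmox1 was 0.143 in monocyte-like cells, against 0.145 in homeostatic microglia-like cells (0.984-fold). Prdx1 was 0.686 in monocyte-like cells, against 0.891 (0.770-fold). Sod1 was 0.0581 in monocyte-like cells, against 0.0909 (0.639-fold), so its direction was opposite to that of the pooled fold. The pooled differences of Hmox1 and Prdx1 between these states were thus not present within the set that held both.

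**Figure D4:**
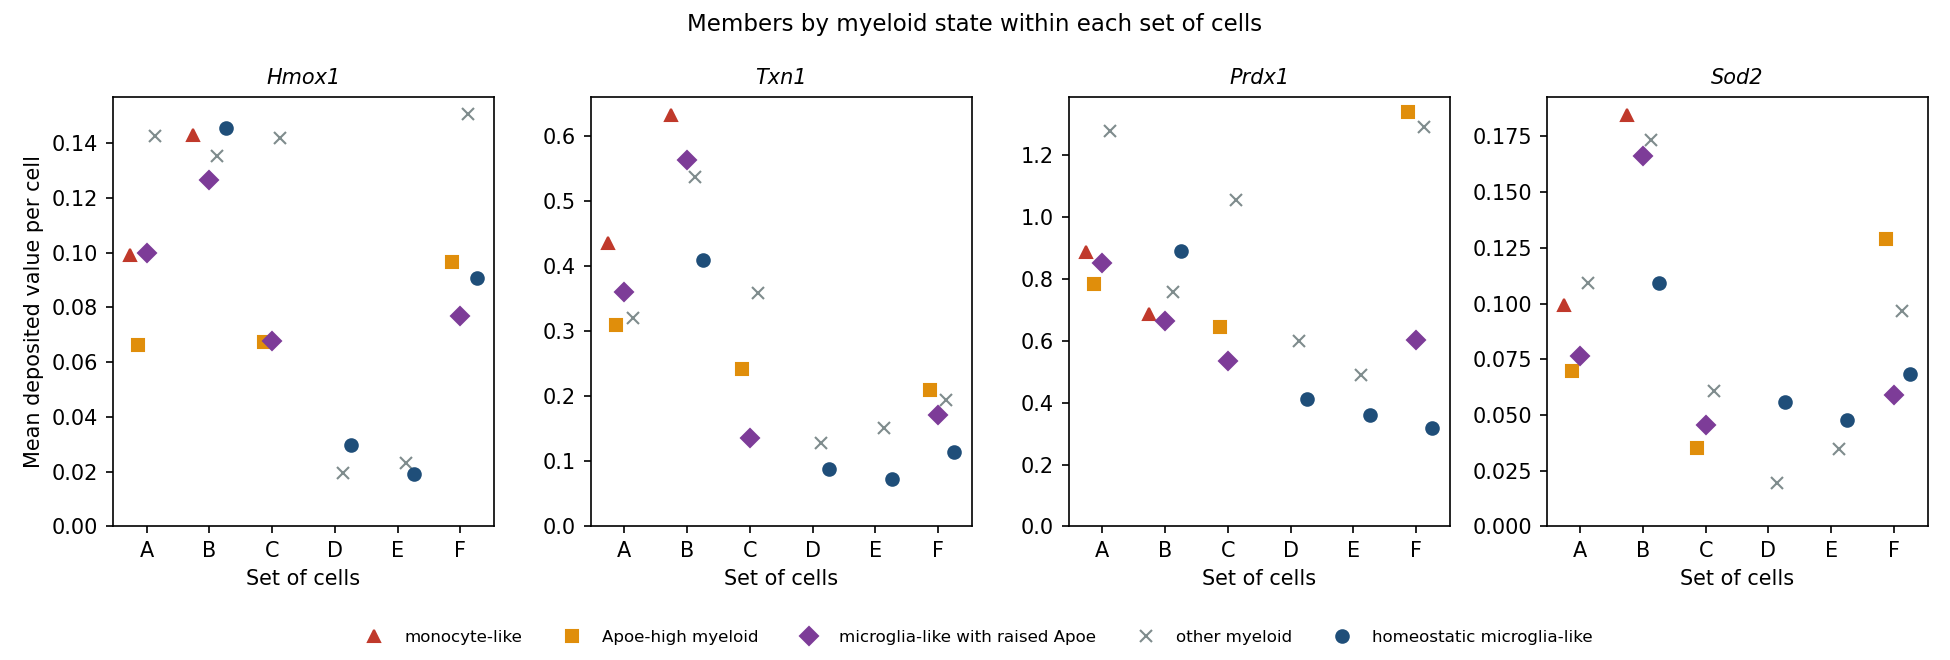
Mean deposited value per cell of Hmox1, Txn1, Prdx1 and Sod2 in 5 myeloid states (symbols) within each set of cells (A to F), drawn where a set held at least 20 cells of the state. For Hmox1 all states drawn in sets D and E lie at or below 0.0296, and all those in set B lie at or above 0.126, homeostatic microglia-like cells included (0.145).

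The level of Hmox1 within homeostatic microglia-like cells was 0.145 in set B (110 cells), 0.0296 in set D (878 cells), 0.0191 in set E (734 cells) and 0.0909 in set F (44 cells). Other myeloid cells, which met no state gate but may hold state markers below its limits, had 0.143, 0.136, 0.142, 0.0196, 0.0233 and 0.151 in sets A to F. Both classes were thus low in sets D and E, and other myeloid cells had much the same level in sets A, B, C and F. Classes also differed within a set, since Apoe-high myeloid cells had 0.0664 in set A and 0.0673 in set C, below other myeloid cells of the same sets. Over all myeloid cells the Hmox1 level was 0.0868, 0.136, 0.0762, 0.0291, 0.0192 and 0.0986 in sets A to F, low in sets D and E. Among genes above 0 in at least 10% of other myeloid cells, Hmox1 had the highest fold over all other gated cells (0.126 against 0.0765, 1.64-fold). Its share there was 10.2%, just past that limit, and genes below the limit were not ranked. Mif, Ccl2 and Lgals3, which encode a cytokine, a chemokine and a galectin, followed.

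Txn1 in all myeloid cells was 0.333, 0.570, 0.230, 0.0923, 0.0817 and 0.185 in sets A to F. Prdx1 was 0.858, 0.711, 0.669, 0.431, 0.375 and 0.829. Sod2 was 0.0773, 0.172, 0.0403, 0.0512, 0.0457 and 0.0775. Txn1 and Prdx1 had their lowest levels in sets D and E, whereas Sod2 was highest in set B and similar in sets C, D and E. Sod1 ranged only from 0.0421 to 0.0740, Gclc from 0.0180 to 0.0341 and Gclm from 0.0193 to 0.0493, with Gclm lowest in set C. The library to which any of these sets belongs is not known, and no set was compared with another by a test.

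Among the myeloid states Slc7a11 had its highest level in monocyte-like cells, at low values. Its level was 0.0350 in monocyte-like cells, against 0.00283 in homeostatic microglia-like cells, and its share 3.41% (2.43 to 4.66%), against 0.283% (0.0920 to 0.659%). Within set B it was 0.0394 in monocyte-like cells, against 0.00909 in homeostatic microglia-like cells. In set A monocyte-like cells had 0.00763, and microglia-like cells with raised Apoe had 0.0289 in set B and 0.00377 to 0.00905 in sets A, C and F. Slc7a11 was therefore highest in set B in both states. It did not pass the limit on low values.

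In Apoe-high myeloid cells 3 of 5 members past the limit on low values were at least 1.5-fold higher than in homeostatic microglia-like cells and none was lower, where 14.7% of all genes were higher and 34.5% lower. Txn1 had a level of 0.286 in Apoe-high myeloid cells, against 0.102 in homeostatic microglia-like cells (2.79-fold). Hmox1 had a level of 0.0694, against 0.0340 (2.04-fold), and Prdx1 a level of 0.755, against 0.418 (1.81-fold). Sod2 (1.08-fold) and Sod1 (1.14-fold) were close to homeostatic microglia-like cells. Set F alone held both states, with 62 and 44 cells, and there Prdx1 was 4.21-fold and Txn1 1.85-fold higher while the Hmox1 fold was 1.06 and that of Sod2 was 1.89.

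In microglia-like cells with raised Apoe 4 of 5 members past the limit were at least 1.5-fold higher than in homeostatic microglia-like cells and none was lower, where 16.9% of all genes were higher and 16% lower. Txn1 had a level of 0.400 in microglia-like cells with raised Apoe, against 0.102 in homeostatic microglia-like cells (3.90-fold), Hmox1 0.105 against 0.0340 (3.08-fold), Sod2 0.108 against 0.0561 (1.93-fold) and Prdx1 0.713 against 0.418 (1.71-fold). Sets B and F held both states. Txn1 was higher in both (1.38-fold in set B and 1.51-fold in set F), and Hmox1 was lower in both (0.870 and 0.846-fold). Prdx1 had folds of 0.747 and 1.89, and Sod2 of 1.53 and 0.863. Sod1, whose pooled fold was 1.4, had folds of 0.745 and 0.863. Without set B the pooled Sod2 fold was 1.27. Across these 3 comparisons, which share the homeostatic cells, Txn1 was the only member past the limit on low values that was higher within every set that could be compared.

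Interferon-responsive myeloid cells (81, of which 55 were in set B) were compared with all other myeloid cells. Of 5 members past the limit 2 were at least 1.5-fold higher and none was lower, where 42.2% of all genes were higher and 6.95% lower, and the median fold of all genes was 1.38. Txnrd1 had a level of 0.111 in interferon-responsive cells, against 0.0420 in other myeloid cells (2.65-fold, and 2.46-fold within set B). It was above 0 in 11.1% of them. Sod2 was 0.148, against 0.0985 (1.5-fold), and 1.06-fold within set B. It was past 1.5-fold only without set C or F or with all sets, with folds of 1.24 to 1.47 without each of sets A, B, D and E. Proliferating myeloid cells (145, of which 127 were in set B) were described without a comparison. They had 48.97% positive cells for Txn1, 67.6% for Prdx1 and 17.2% for Hmox1.

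Other genes of the same pathways were counted from lists. Against homeostatic microglia-like cells, none of 6 measured NRF2 control genes was at least 1.5-fold higher in monocyte-like cells and 2 were lower. Over all genes of this comparison 17.3% were higher and 27.3% lower, and the small list counts in this paragraph are read against those shares. The 2 lower genes were Nfe2l1, a relative of NRF2 (0.0440 in monocyte-like cells, against 0.117 in homeostatic microglia-like cells), and Bach1, a repressor of Hmox1 (0.0629, against 0.0985). Nfe2l2 itself, named after its values were seen, was 0.167 in monocyte-like cells, against 0.176 in homeostatic microglia-like cells. Of 9 measured thioredoxin and peroxiredoxin genes 4 were higher and 2 lower. Msrb1, a methionine sulfoxide reductase, was 6.37-fold higher and Prdx5, a peroxiredoxin, was 3.54-fold higher, while Txnip, which binds and inhibits thioredoxin, had a fold of 0.253. Of 7 glutathione genes 1 was higher (Esd, 1.57-fold) and 2 were lower (Gpx4, the peroxidase that acts on membrane lipids, 0.528-fold, and Glrx5, 0.646-fold). Of 4 heme genes Alas1, the first enzyme of heme synthesis, was 2.09-fold higher, and Hpgds, a prostaglandin synthase (0.495-fold), and Hmox2, the constitutive heme oxygenase (0.582-fold), were lower. Alas1 and Hpgds are on this list but do not break down heme. Park7 and Oxr1 of superoxide and peroxide removal and 4 genes of NADPH supply did not pass 1.5-fold, with Pgls at 1.36-fold, Tkt at 1.24-fold and Pgd at 1.15-fold.

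These genes differed between sets as the members did. In all myeloid cells Txnip had levels of 0.107, 0.0767, 0.0876, 0.287, 0.284 and 0.167 in sets A to F, high in sets D and E. Prdx5 had 0.388, 0.830, 0.237, 0.241, 0.210 and 0.364 and was high in set B. Msrb1 had 0.131, 0.196, 0.0692, 0.0401, 0.0240 and 0.0657, also highest in set B.

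In ependymal cell-like cells the list counts against myeloid cells were 8 higher and 2 lower of 12 measured glutathione genes, 6 higher and 1 lower of 9 thioredoxin and peroxiredoxin genes, 3 higher of 3 superoxide and peroxide genes, 3 higher and 1 lower of 6 NRF2 control genes, 1 higher of 4 NADPH supply genes, and 0 higher and 2 lower of 3 heme genes. The background of 56.9% higher applies here too. The median fold was 2.10 for glutathione, 1.62 for thioredoxin and peroxiredoxin and 0.414 for heme breakdown, beside 1.78 for all genes. Gpx4 was 0.786 in ependymal cell-like cells, against 0.206 in myeloid cells (3.81-fold), and Park7, which protects cells against oxidants, was 0.524, against 0.183 (2.86-fold). The largest folds, named after their values were seen, were those of Gsta4 (23.2-fold), Prdx6 (9.56-fold) and Gstm1 (8.33-fold), which encode glutathione transferases and a peroxiredoxin. Nfe2l2 had a level of 0.0397 in ependymal cell-like cells, against 0.173 in myeloid cells.

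In oligodendrocyte-like cells 3 of 10 glutathione genes were higher than in myeloid cells and none lower, and Gpx4 was 0.622, against 0.206 (3.01-fold). The other 2, named after their values were seen, were Mgst3 and Gstp1, both of them glutathione transferases, at 7.34-fold and 7.13-fold. None of 9 thioredoxin and peroxiredoxin genes was higher in oligodendrocyte-like cells and 2 were lower. Over all genes of this comparison 15.4% were higher and 12.6% lower.

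The genes with the most similar pattern were found over the 11 classes as a description. The classes share libraries and free RNA and are not independent. For Hmox1 these were Ftl1, a ferritin light chain (Pearson r = 0.96), and Cstb, a cystatin (0.95). For Txn1 they were Anxa2 (0.93) and Ifitm3 (0.88), for Prdx1 Cox4i1 (0.88) and Fth1, the ferritin heavy chain (0.81), and for Nqo1 Scd2 (0.97) and Gpm6b (0.93). For Sod1 they were Ndufb5 and Atp5j (0.94 and 0.93), both of the mitochondrial respiratory chain or ATP synthase, and for Sod2 Ndufb1-ps (0.81) and Txn1 (0.77). Gclm went with Stmn1 and Taldo1 (0.87 and 0.86), Gclc with Eif5 and Zfp106 (0.94 and 0.93), Slc7a11 with Pla2g7 and Id2 (0.87 and 0.75) and Txnrd1 with Med28 (0.96). Among the members themselves the closest pair was Txn1 and Txnrd1 (0.86), followed by Txn1 and Sod2 (0.77) and by Txnrd1 and Sod1 (0.73). The lowest correlation between members was that of Slc7a11 and Txnrd1 (-0.51). Hmox1 and Gclc had -0.43, as did Nqo1 with Txn1 and Nqo1 with Txnrd1.

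In GRCm38 (GENCODE vM21) Hmox1 lies on chromosome 8 at 75093621 to 75100589 (plus strand) and Nqo1 on chromosome 8 at 107388225 to 107403206 (minus strand). The glutathione genes are Gclc on chromosome 9 at 77754535 to 77794485 (plus strand), Gclm on chromosome 3 at 122245557 to 122270732 (plus strand) and Slc7a11 on chromosome 3 at 49892526 to 50443614 (minus strand). The thioredoxin genes are Prdx1 on chromosome 4 at 116685544 to 116700822 (plus strand), Txn1 on chromosome 4 at 57943373 to 57956411 (minus strand) and Txnrd1 on chromosome 10 at 82833951 to 82897712 (plus strand). Sod1 lies on chromosome 16 at 90220754 to 90226329 and Sod2 on chromosome 17 at 13006846 to 13040063, both on the plus strand. Slc7a11 overlaps 5 annotated genes or pseudogenes, some of them on its own strand. Txnrd1 overlaps Gm38560 and Gm47073 on the other strand and Eid3 on its own. Since intronic reads were counted, values of these loci may include reads of a neighbour on the same strand.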

How the data were processed

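Spinal cord cells were measured by 3′ single-cell RNA sequencing (10x Genomics) in 6 libraries. Per the labels and the study's methods, the authors aligned reads to GRCm38 (Ensembl 93) with Cell Ranger 7.1.0, counting intronic reads, and merged and filtered cells in Seurat 4.3.0.1. They deposited 1 table, whose values were treated as a score (whole numbers, not UMI counts); how they were derived is not given in the sources used here. No columns were left out.

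All 13614 cells were used (pandas 2.3.3, scipy 1.17.1 and numpy 2.4.6 under Python 3.11.15). A lineage gate required 3 markers above 0, 2 more than any other lineage, and under 8 of 10 myeloid markers. The myeloid gate required 5 of 10 myeloid markers and under 3 markers of any lineage. Of 201 markers, 199 were in the table. No doublet caller was run, and mixed cells were left out. 18 of 13596 barcodes occurred in more than 1 set. A fold is the ratio of 2 class means, compared for genes whose average of both means is at least 0.05 and called at 1.5-fold. Depth is unknown, so cells were not thinned. Scaled values sum to 10000 per cell.

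All 10 members were named. Of 68 other pathway genes, up to 3 per list were named by the largest fold between monocyte-like and homeostatic microglia-like cells. Similar genes were the 2 with the highest correlation among genes with a mean of at least 0.1. 1 of these is not reported here. Members and lists were chosen with earlier results of these data known. The calculation was tested on simulated data. Sequences are from RefSeq (GRCm38.p6). Alternatives changed the gates, the limits, the scaling, the cell filter and the sets included.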

Additional observations from a re-analysis of the deposited data

How the results depend on the processing

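No paired analysis was possible because sets of cells are not tied to replicates and nothing was tested. Counts are members past 1.5-fold. Leaving out each set in turn gave 4 to 5 for monocyte-like, 2 to 3 for Apoe-high and 4 to 4 for raised-Apoe cells against homeostatic microglia-like cells (4, 3 and 4 with all sets), 1 to 4 for interferon-responsive cells (2), and, against myeloid cells, 0 to 3 for oligodendrocyte-like (1), 1 to 2 for astrocyte-like (2), 4 to 6 for ependymal cell-like (5), 1 to 3 for endothelial cell-like (3), 1 to 2 for pericyte-like (1) and 2 to 2 for T or NK cell-like cells (2). With the low-value limit at 0.1, raised-Apoe cells kept 2, interferon-responsive, astrocyte-like and T or NK cell-like cells 1 each, and oligodendrocyte-like, endothelial cell-like and pericyte-like cells 0, since fewer genes then pass. The median of the folds within sets gave 0 for raised-Apoe and for endothelial cell-like cells, 1 for interferon-responsive, 2 for oligodendrocyte-like and 3 for pericyte-like cells. It reversed 3 of the folds past 1.5: Hmox1 and Prdx1 in monocyte-like cells (0.984 and 0.770) and Hmox1 in raised-Apoe cells (0.858). Folds short of 1.5 changed side too, such as Sod1 in monocyte-like cells (0.639). With 1 more marker at each gate, oligodendrocyte-like cells gave 3 and astrocyte-like cells 1. With mixed cells kept, interferon-responsive cells gave 1, endothelial cell-like cells 1 and pericyte-like cells 2. The stated cell filter, which 12556 cells met on the deposited values, gave 4 for interferon-responsive and 0 for oligodendrocyte-like cells. Scaling gave 1 for interferon-responsive cells. The cause of these changes was not tested. The main limits are the unknown origin of the values, the unknown link of sets to libraries, and classes of 77 to 128 cells.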
